A study of Mus musculus with 35 samples.

Results

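The MYC activators Mycl, Myc and Mycn and their shared partner Max were followed in type 1 conventional dendritic cells (cDC1) of mouse spleen, chosen by name as 4 of the 19938 genes that the annotation of the arrays names. Each of these genes was read by 1 transcript cluster, a group of probes summarised to a single value, and no cluster named several of them together. The 35 arrays came from cells purified by flow cytometric sorting and fell into 8 groups in 4 sets. Set 1 held cells of MyclGFP/+ mice (heterozygous, n = 5) and MyclGFP/GFP mice (Mycl KO, n = 4) at steady state. Set 2 held cells of Mycl+/+ mice (WT, n = 5) and MyclGFP/GFP mice (n = 5) at steady state. Set 3 held the same pair of genotypes (n = 5 each) 5 h after 100 µg of poly IC had been injected into the peritoneum. The Mxd1 set held cells of Mxd1+/+ mice (n = 3) and mice labelled Mxd1-/- (n = 3), all taken 18 h after the same dose, so that both of its groups were activated. Poly IC is a synthetic double-stranded RNA that sets off the type I interferon response. MyclGFP is an allele with GFP placed at the Mycl gene in all cells of the mouse, and MyclGFP/GFP is called Mycl KO here, as in the labels. Set 1 thus compared the loss of the remaining functional copy with 1 copy, and sets 2 and 3 compared it with intact Mycl. The labels give no ages, and they name biological replicates without saying that each array is a different mouse, so p-values measure the spread between these samples.

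MYC proteins are basic helix-loop-helix leucine zipper transcription factors that bind DNA only as a heterodimer with MAX. The dimer recognises the E-box CACGTG and drives genes of ribosome production, nucleotide synthesis and cell growth. MAX also pairs with MXD proteins, MNT and MGA, which repress genes at the same sites. Most proliferating cells rely on MYC, MYCN acts mainly in embryonic and neural tissue, and cDC1 are known for high Mycl and low Myc. The comparisons address whether the other members change where Mycl or Mxd1 is missing, at rest and under activation.

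The E-box is the letter string that dimers of these proteins bind, so the promoters of the members were searched for it. The start sites are shown with 15 bases before the start and 15 after it. RefSeq promoters of GRCm38.p6 were found for 3 of the 4 members, Myc being the fourth. Capitals mark CACGTG, which reads the same on both strands.
Mycl, chr4:122995916-122995945, plus strand: gacgagatataaagcagtcgggaaacaatg
Mycn, chr12:12941822-12941851, minus strand: cttcaaagcgcagccagtgacagtcatctg
Max, chr12:76962234-76962263, minus strand: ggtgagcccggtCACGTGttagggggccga
The Max promoter, taken as 250 bases before the start and 50 after it, held CACGTG 1 time, with its first base at position -3 from the start. The promoters of Mycl and Mycn held these letters 0 times over the same 300 bases. Among all promoters of this length 7.2% held the string, 2349 of 32851. A match is a description of the letters and does not show binding.

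Levels are log2 values, so that a difference of 1 is a 2-fold change. They were treated as normalized separately in each set, which the values show but the labels do not state. Levels of different sets were therefore not tested against each other, and each test used differences taken within a set. The lowest array median was 5.47, in set 3, and the highest was 6.57, in set 1. All 11 cDC1 markers, Xcr1, Clec9a and Batf3 among them, lay at or above the filter level in every array, and their mean was 9.85 to 11.38. The filter level is the 30th percentile of the named clusters of an array. Of the 9 T and NK cell markers 3 to 6 reached it, and of the 7 B cell markers 5 did.

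Several arrays stood apart and touch the results below. The array labelled Mycl KO 3 of set 3 had Mycl at 8.87, against 5.52 to 6.14 in the other 4 KO arrays and 9.03 to 9.81 in WT. In set 3, WT arrays 1 and 4 had a weak interferon response. The mean level of 19 interferon response genes was 7.25 and 8.48 in them, 10.40, 10.37 and 10.66 in WT arrays 2, 3 and 5, and 10.42 to 10.84 in the KO arrays. Where a result of set 3 rests on these 3 arrays, it is also given without them. The label Mxd1-/- was not borne out by the Mxd1 level, which was lower by only 0.31 ± 0.11 (SE) on the log2 scale (limma, adjusted p = 0.26). Those arrays are called labelled Mxd1 KO. Where the Mxd1 probes lie relative to the altered part of the gene is not given in the sources used here.

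Across the members, the genotype differences at steady state concerned Mycl and Myc. With limma and Benjamini-Hochberg adjustment over all genes tested, 1 of 4 members passed an adjusted p of 0.05 in set 1 and 2 of 4 passed in set 2. Of all genes tested 0.0214% passed in set 1 and 6.14% in set 2. In set 3 and in the Mxd1 set 0 of 4 members passed, beside 0% and 0.071% of all genes. In set 3 limma called 0 of 14033 genes, although 1992 had an unadjusted p under 0.05, and it called 11 genes without WT arrays 1 and 4 and 63 when the array labelled KO 3 was also left out. Members whose groups did not overlap numbered 1 of 4 in set 1, 2 of 4 in sets 2 and 3, and 1 of 4 in the Mxd1 set. Among all genes the groups did not overlap for 4.46% (set 1), 6.74% (set 2), 3.56% (set 3) and 22.6% (Mxd1 set).

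**Figure D1:**
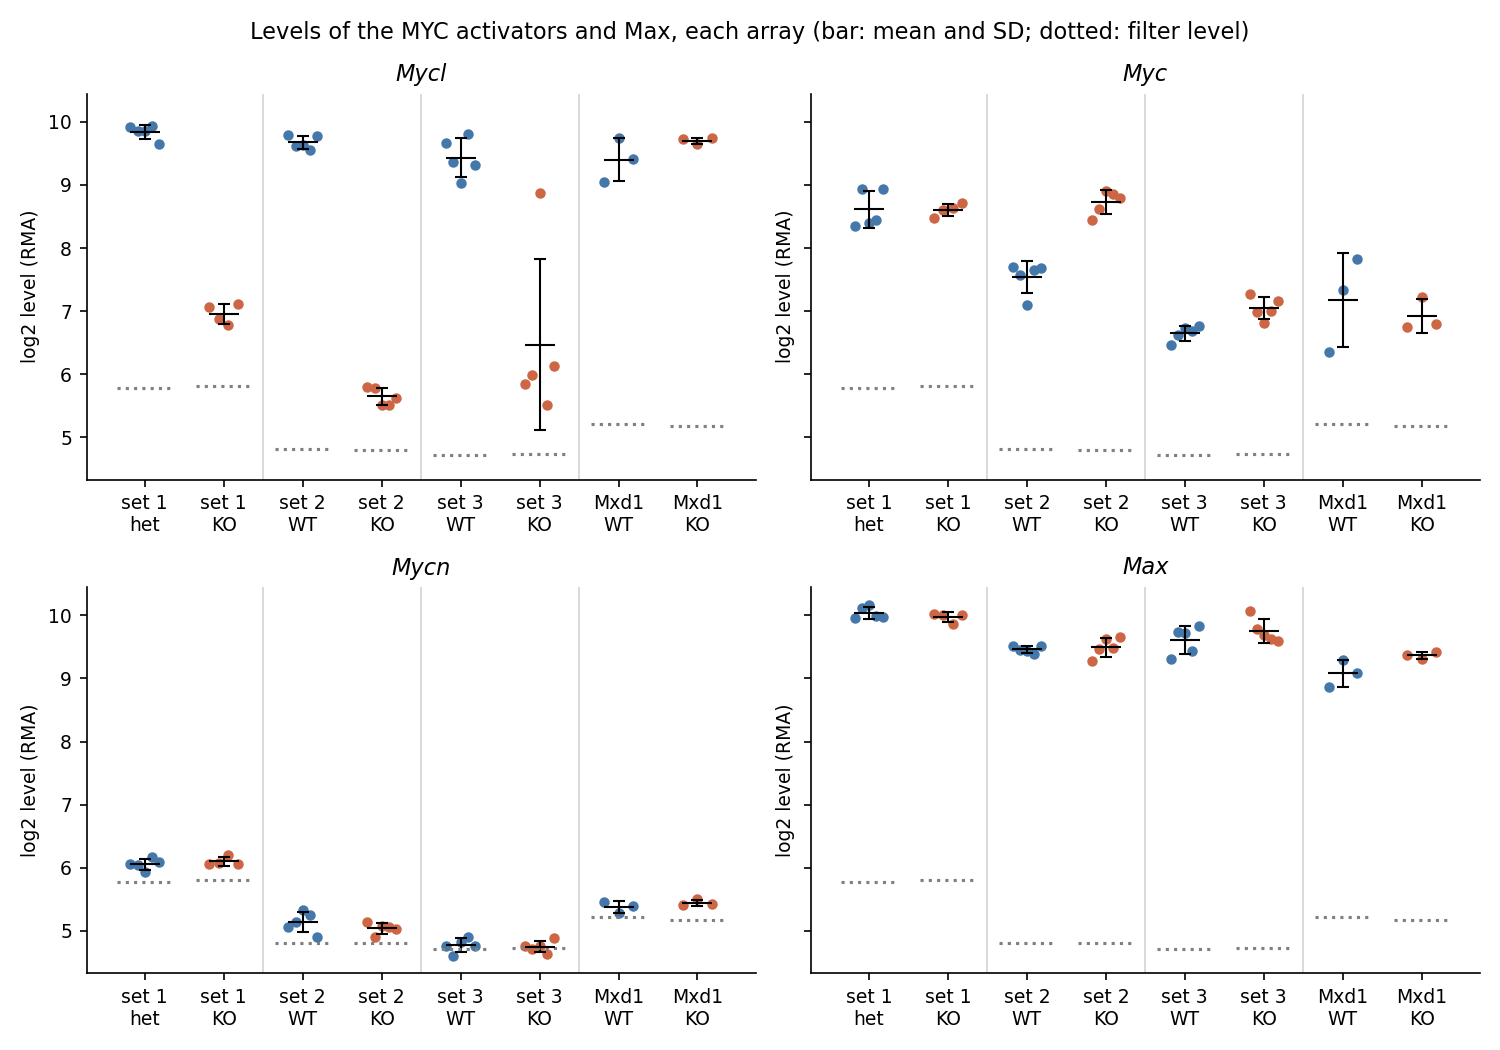
Log2 level (RMA, y axis) of Mycl, Myc, Mycn and Max in each of the 35 arrays by group (x axis), with blue points for controls, orange points for KO, bars for mean and SD, dotted lines for the filter level, and grey lines between sets, whose levels are not on a common scale. Mycl was low in the Mycl KO groups apart from 1 array of set 3 at 8.87, Myc was higher in KO than in WT cells in sets 2 and 3, Mycn lay near the filter level, and the Max groups lay close together in every Mycl set.

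Mycl, the MYC activator of dendritic cells and the gene carrying GFP, was measured first as a check of the labels. In set 1 its level was 9.91, 9.86, 9.85, 9.93 and 9.65 in heterozygous cells and 7.07, 6.88, 6.78 and 7.11 in KO cells. In set 2 it was 9.79, 9.61, 9.63, 9.55 and 9.78 in WT cells and 5.80, 5.79, 5.51, 5.52 and 5.63 in KO cells. In both sets every KO array lay below every control array, and within a group the arrays were close together. The group means were 9.84 ± 0.11 (SD) and 6.96 ± 0.16 in set 1, and 9.67 ± 0.11 and 5.65 ± 0.14 in set 2. Mycl fell by 2.88 ± 0.08 (SE) on the log2 scale in set 1, a 7.36-fold difference (limma, adjusted p = 1.3e-08, 95% interval -3.05 to -2.71). In set 2 it fell by 4.03 ± 0.07, or 16.3-fold (adjusted p = 1.07e-14, 95% interval -4.18 to -3.87). The difference between the KO effects of sets 1 and 2 was 1.15 ± 0.11 and passed limma's test (adjusted p = 1.02e-05), beside 1.01% of all genes. This call was lost when the spread was pooled over all 8 groups (adjusted p = 0.422). The control was heterozygous in set 1 and WT in set 2, so the control genotype and the set cannot be told apart. How the probes of Mycl lie relative to the GFP insertion is not given in the sources used here.

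After 5 h of poly IC, Mycl was 9.66, 9.36, 9.03, 9.81 and 9.31 in the WT arrays and 5.84, 5.99, 8.87, 5.52 and 6.14 in the KO arrays. The groups did not overlap, but the array labelled KO 3 lay just under the lowest WT array. The difference was -2.96 ± 0.54 (SE; 95% interval -4.14 to -1.78) and with all arrays did not pass in limma (adjusted p = 0.15). Without the array labelled KO 3 Mycl fell by 3.56 ± 0.17 (adjusted p = 3.2e-05), and without WT arrays 1 and 4 as well it fell by 3.36 (adjusted p = 2.56e-07). Those WT arrays held the highest Mycl levels of their group. The KO effect in set 3 less that in set 2 was 1.06 ± 0.57 and did not pass (adjusted p = 0.426). It was 0.46 ± 0.19 without the array labelled KO 3 (adjusted p = 0.317).

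In the Mxd1 set, where Mycl was intact, its level was 9.05, 9.74 and 9.41 in WT and 9.72, 9.65 and 9.74 in the arrays labelled Mxd1 KO. The groups overlapped, and WT array 1 was the lowest. The difference was 0.30 ± 0.15 (SE; 95% interval -0.05 to 0.66; limma, adjusted p = 0.379). Ordered by the share of named clusters below it, Mycl stood at a median of 94.9% in set 2 WT, 93.4% in the arrays labelled Mxd1 KO, 92.8% in set 3 WT, 91.8% in Mxd1 WT and 90.5% in set 1 heterozygous cells. The Mycl KO groups followed at 56.0% in set 3, 54.4% in set 1 and 47.1% in set 2. Of these neighbours, set 2 WT did not overlap with the labelled Mxd1 KO arrays, nor set 1 KO with set 2 KO, and all others overlapped. Set 1 heterozygous cells, from 89.2% up, met set 3 KO only through the array labelled KO 3, at 89.6%. The other KO arrays of set 3 stood at 46.6% to 58.4%. The order is a description, because the sets were treated as normalized separately.

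**Figure D2:**
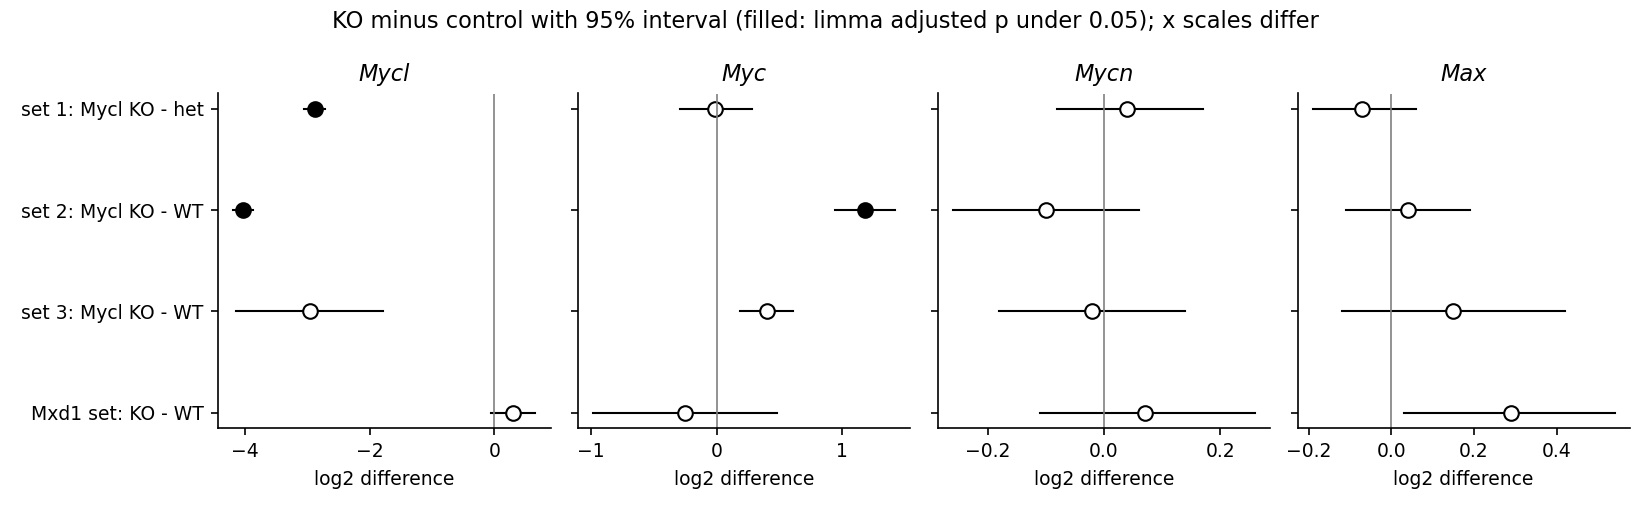
Log2 difference, KO minus control (x axis, with a different scale in each panel), of the 4 genes in each set (y axis), with bars for the 95% interval and filled points for an adjusted p under 0.05 in limma. Filled points stand at -2.88 and -4.03 for Mycl in sets 1 and 2 and at 1.18 for Myc in set 2, and the intervals of Mycn include 0 in every set.

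Myc, the family member best known for driving proliferation, was higher in KO than in WT cells of set 2. Its level was 7.70, 7.58, 7.10, 7.66 and 7.68 in WT cells and 8.44, 8.62, 8.91, 8.86 and 8.80 in KO cells. Every KO array lay above every WT array, and WT array 3 was the lowest. The group means were 7.54 ± 0.25 (SD) and 8.72 ± 0.20. Myc rose by 1.18 ± 0.11 (SE) on the log2 scale, or 2.27-fold (limma, adjusted p = 7.85e-05, 95% interval 0.94 to 1.42). Among the 14012 genes tested in this set its p was the 4th smallest and its rise the 2nd largest. Leaving out each array in turn gave a rise of 1.07 to 1.25, with an adjusted p of at most 0.000599.

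In set 1, with heterozygous controls, Myc was 8.35, 8.94, 8.40, 8.44 and 8.93 in heterozygous cells and 8.47, 8.6, 8.64 and 8.71 in KO cells. All KO values lay inside the range of the heterozygous arrays. Both means were 8.61, and the difference was -0.01 ± 0.13 (SE; adjusted p = 0.986). Its 95% interval, -0.29 to 0.28, does not reach the difference of set 2. The KO effect of set 1 less that of set 2 was -1.19 ± 0.18 (95% interval -1.57 to -0.81) and passed limma's test (adjusted p = 0.00324). Over both steady-state sets together Myc rose by 0.62 ± 0.15, or 1.54-fold (adjusted p = 0.0219), and 2 of 4 members passed in that fit, beside 4.43% of all genes. That mean joins a set with no difference in means and a set with a clear one.

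Some markers of other cells also moved in set 2, where limma called 6.14% of all genes. Of 6 monocyte and macrophage markers tested, Cd14 fell by 1.42 ± 0.10 and Spic by 0.58 ± 0.16 (adjusted p = 2e-06 and 0.0395). The 6 ran from -1.42 to 0.31 with a median of -0.12, 4 below 0 and 2 above, so the list did not move as a whole. The mean of the 7 such markers on the array was 6.28 to 6.5 in KO and 6.6 to 6.78 in WT cells. In set 1 it was 7.75 to 7.91 in KO and 7.71 to 7.82 in heterozygous cells. Of 6 cDC2 markers tested Cd209a rose by 1.37 ± 0.25 and Cd4 fell by 0.53 ± 0.07 (adjusted p = 0.00597 and 0.00079), and the mean of the 9 on the array was 5.32 to 5.78 in KO and 5.38 to 5.6 in WT cells. Of 8 plasmacytoid dendritic cell markers 7 lay above 0, with a median of 0.21. Tcf4 and Ccr9 rose by 0.50 and 0.43, and Pacsin1, the only 1 below 0, fell by 0.54. The mean of the 8 was 6.66 to 6.94 in KO and 6.59 to 6.71 in WT cells. Of 5 B cell markers tested 4 lay above 0, and only Ms4a1 lay below, falling by 0.58 ± 0.10 (adjusted p = 0.00345). The mean of the 7 B cell markers on the array was 4.97 to 5.15 in KO and 5.05 to 5.17 in WT cells. All 6 T and NK cell markers tested lay above 0 and 0 passed, with a mean over the 9 on the array of 5.07 to 5.32 in KO and 5.0 to 5.25 in WT cells. Of the 11 cDC1 markers 5 rose and 1 fell, and their mean was 10.57 to 10.71 in KO and 10.49 to 10.64 in WT cells. The part of these markers in the Myc difference was not tested. In bulk arrays, fewer cells of a type and less RNA per cell cannot be told apart.

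Under poly IC Myc was 6.46, 6.62, 6.73, 6.68 and 6.77 in WT cells and 7.28, 6.98, 6.82, 7.0 and 7.16 in KO cells of set 3. The groups did not overlap, with the highest WT array at 6.77 and the lowest KO array, the one labelled KO 3, at 6.82. The difference was 0.40 ± 0.10 (SE; 95% interval 0.19 to 0.61), or 1.32-fold, and did not pass in limma (adjusted p = 0.229). The difference was 0.34 without WT arrays 1 and 4 (adjusted p = 0.261) and 0.40 when the array labelled KO 3 was also left out (adjusted p = 0.098).

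The KO effect on Myc in set 3 less that in set 2 was -0.78 ± 0.16 (SE; 95% interval -1.12 to -0.44), short of the threshold in limma (adjusted p = 0.0789). In this comparison 0 of 4 members passed, beside 0.0205% of all genes. Without WT arrays 1 and 4 of set 3 it was -0.84 and passed (adjusted p = 0.0338). With the array labelled KO 3 also left out it was -0.78 (adjusted p = 0.0451). Over the alternatives that kept all arrays, its adjusted p ran from 0.00956 to 0.222.

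In the Mxd1 set Myc was 6.36, 7.33 and 7.83 in WT and 6.75, 7.23 and 6.79 in the arrays labelled Mxd1 KO. The WT arrays alone spanned the whole range of the set. The difference was -0.25 ± 0.32 (SE; 95% interval -0.98 to 0.48; adjusted p = 0.73), and it was 0.08 without WT array 3. By the share of named clusters below it, Myc stood highest in set 2 KO at a median of 89.4%, then at 78.6% in set 1 KO, 77.5% in set 2 WT and 75.6% in set 1 heterozygous cells. It stood at 71.1% in set 3 KO, 68.4% in Mxd1 WT, 65.8% in set 3 WT and 60.3% in the arrays labelled Mxd1 KO. Set 2 KO was the only group that did not overlap with its next neighbour in this order.

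Mycn, the neural and embryonic member, was close to the filter level everywhere, where an array value may hold little more than background. In set 1 it was 6.06, 6.04, 5.93, 6.17 and 6.10 in heterozygous and 6.06, 6.08, 6.21 and 6.06 in KO cells, with filter levels of 5.71 to 5.82. In set 2 it was 5.07, 5.15, 5.33, 5.25 and 4.91 in WT and 5.15, 4.91, 5.08, 5.06 and 5.03 in KO cells, with filter levels of 4.77 to 4.85. The groups overlapped in both sets. Set 3 gave 4.77, 4.61, 4.82, 4.91 and 4.76 in WT and 4.76, 4.72, 4.77, 4.63 and 4.89 in KO cells, and 4 of 5 arrays of each group reached the filter level. In the Mxd1 set Mycn was 5.46, 5.28 and 5.39 in WT and 5.41, 5.5 and 5.43 in the arrays labelled Mxd1 KO.

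None of the 4 comparisons within a set moved Mycn beyond the spread between arrays. The difference was 0.04 ± 0.06 (SE) in set 1, -0.10 ± 0.08 in set 2, -0.02 ± 0.07 in set 3 and 0.07 ± 0.08 in the Mxd1 set, with limma adjusted p of 0.726, 0.515, 0.907 and 0.698. The 95% intervals together ran from -0.26 to 0.26, and values so near the filter level limit what they can show. In its order by group Mycn stood above a median of 30.4% to 37.0% of the named clusters, and no neighbouring groups were separated.

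Max encodes the obligate partner of all MYC proteins. In set 1 it was 9.96, 10.12, 10.17, 9.99 and 9.97 in heterozygous and 10.02, 10.01, 9.86 and 10.01 in KO cells. In set 2 it was 9.51, 9.45, 9.43, 9.39 and 9.52 in WT and 9.27, 9.46, 9.62, 9.48 and 9.65 in KO cells. The groups overlapped in both sets. The differences were -0.07 ± 0.06 (SE; 95% interval -0.19 to 0.06) and 0.04 ± 0.07 (-0.11 to 0.19), with limma adjusted p of 0.598 and 0.82.

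In set 3 Max was 9.30, 9.74, 9.72, 9.44 and 9.83 in WT and 10.07, 9.79, 9.69, 9.63 and 9.60 in KO cells. Its lowest values were those of WT arrays 1 and 4, the pair with the weak interferon response. The difference of 0.15 ± 0.12 (SE; adjusted p = 0.536) became -0.01 without them. In the Mxd1 set Max was 8.86, 9.29 and 9.09 in WT and 9.37, 9.30 and 9.42 in the arrays labelled Mxd1 KO. The groups did not overlap, as for 22.6% of all genes there. The difference was 0.29 ± 0.11, or 1.22-fold, and did not pass in limma (adjusted p = 0.279). WT array 1 of this set held the lowest Max, the lowest Mycl and the lowest Myc of its set. By the share of named clusters below it, Max stood at a median of 89.5% to 94.6%, highest in set 3 WT and lowest in Mxd1 WT. Neighbours in this order overlapped except set 2 WT with set 1 heterozygous cells and the arrays labelled Mxd1 KO with Mxd1 WT.

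**Figure D3:**
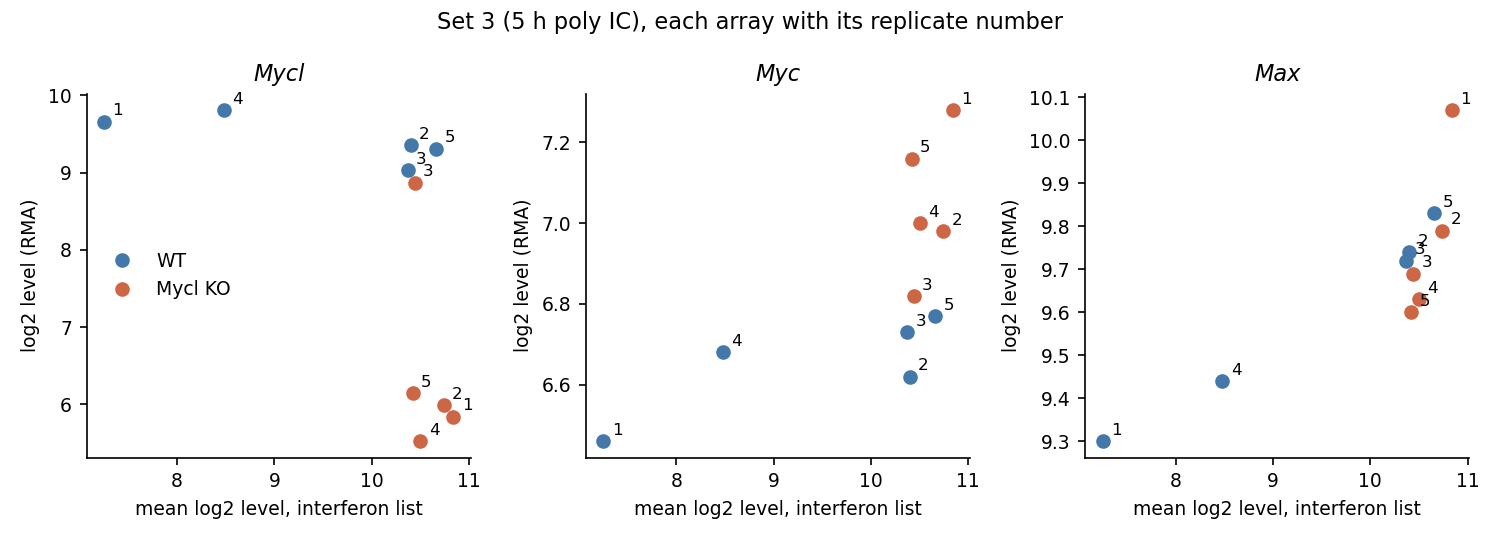
Log2 level (y axis) of Mycl, Myc and Max in the 10 arrays of set 3 against the mean log2 level of 19 interferon response genes (x axis), with blue points for WT, orange points for Mycl KO and replicate numbers beside them. WT arrays 1 and 4 lie apart on the x axis, at 7.25 and 8.48, with the highest Mycl and the lowest Max of the WT arrays.

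The genes most like each member were found over the 35 arrays after each set's mean was subtracted, among 13167 genes above the filter level, and are given as a description. For Mycl the nearest was Ndufs5, a subunit of mitochondrial complex I whose gene lies on chromosome 4 as Mycl does (Pearson r = 0.89, and 0.62 when each group's mean was subtracted). The r of 0.62 includes the array labelled KO 3 of set 3 and was not computed without it. The Mycl SD of that group was 1.36, against 0.05 to 0.34 in the other groups. Rpl19, a ribosomal protein, and Ptpmt1, a mitochondrial phosphatase, followed with r of 0.84 and 0.82. In set 3 Ndufs5 was 7.95, 7.97, 7.65, 8.34 and 7.78 in WT and 6.83, 6.87, 7.96, 7.03 and 6.31 in KO cells. The array labelled KO 3 lay inside the WT range of Ndufs5 and near the WT range of Mycl. Ndufs5 was picked by its r with Mycl over these same arrays, so this is no separate check of that label. Opposite to Mycl ran Dst, a cytoskeletal linker, Cd300lf, an inhibitory receptor, and Slc29a3, a lysosomal nucleoside transporter, with r of -0.84, -0.80 and -0.77. These fell to -0.31, -0.19 and -0.39 with group means subtracted, so most of that likeness was the step between genotypes.

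For Myc the most alike were Etv5, an ETS transcription factor, Cd22, an inhibitory receptor best known from B cells, and Pak4, a kinase (r = 0.86, 0.83 and 0.79). With group means subtracted r was 0.74, 0.52 and 0.51, but Etv5 did not follow Myc in every group. The 2 ran together in Mxd1 WT, where both spread most, with Myc at 6.36, 7.33 and 7.83 and Etv5 at 5.46, 5.76 and 6.09. In set 3 WT, array 1 had the lowest Myc (6.46) and the highest Etv5 (5.69). Array 5 of that group had the highest Myc (6.77) and the lowest Etv5 (5.36). In set 2 Etv5 was 5.92, 5.73, 5.47, 6.0 and 5.96 in WT and 6.16, 6.17, 6.34, 6.24 and 6.36 in KO cells. Its lowest array was WT 3, which was also the lowest for Myc, and Etv5 was picked by its r with Myc over these same arrays. Cd22 was 7.05, 6.81, 6.98, 6.96 and 6.90 in WT and 7.49, 7.76, 7.41, 7.85 and 7.68 in KO cells of that set. Its groups did not overlap, as for 6.74% of all genes there. Etv5, Cd22 and Pak4 differed little in set 1, by -0.08 ± 0.09, -0.03 ± 0.07 and 0.02 ± 0.05 (SE). All 3 were picked by their r with Myc over arrays that include sets 1 and 2. Their likeness to Myc in those sets is therefore no separate result. Slc3a2, the heavy chain of amino acid transporters, Asph and Tssc4 ran opposite to Myc with r of -0.76, -0.74 and -0.74. These became -0.63, -0.25 and -0.27 with group means subtracted.

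For Max the most alike were Mapkap1, a component of the mTORC2 kinase complex, Rnf139, a ubiquitin ligase, and Slfn9, a Schlafen family gene (r = 0.82, 0.80 and 0.80, and 0.81, 0.79 and 0.78 with group means subtracted). In set 3 Slfn9 was 5.40, 6.67, 6.45, 5.43 and 7.11 in WT and 7.49, 6.80, 6.79, 6.55 and 6.58 in KO cells. Its lowest arrays were WT 1 and 4 and its highest was KO 1, the same arrays as for Max. Slfn9 was likewise picked by its r over these arrays. Creg1, Trim50 and Epm2aip1 ran opposite to Max with r of -0.73, -0.70 and -0.70. For Mycn the values were lower, from 0.66 to 0.69 for Cdv3, Pard3 and Xirp1 and from -0.69 to -0.63 for Clcn5, Elk4 and Snx8. All arrays of a set share their normalization, and r over them carries that.

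**Figure D4:**
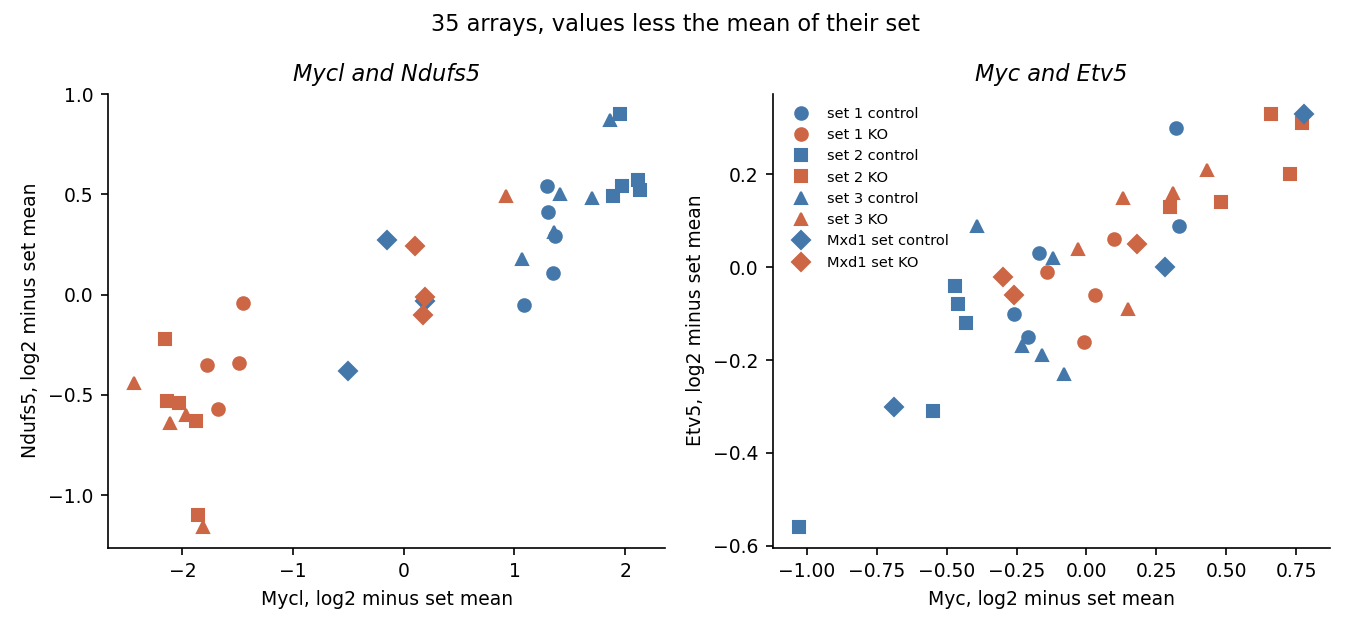
Level of Ndufs5 against Mycl (left) and of Etv5 against Myc (right) in 35 arrays, each as log2 minus the mean of its set, with shapes for sets, blue for controls and orange for KO. In sets 2 and 3 the KO arrays lie below the controls in both Mycl and Ndufs5 except for 1 KO array of set 3. In set 1 the Ndufs5 ranges meet (KO array 4 at 8.36, heterozygous array 5 at 8.35). Etv5 tends to be higher where Myc is higher (r = 0.86 over the 35 arrays), though not among the WT arrays of set 3.

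The other proteins of the network compete with MYC for MAX or act beside it. Of the 9 genes, which are Mxd1, Mxd3, Mxd4, Mxi1, Mnt, Mga, Mlx, Mlxip and Mlxipl, limma called 0 in each of the 4 sets and 0 in the fit over both steady-state sets. Their median difference was -0.04 in set 1, 0 in set 2, -0.02 in set 3 and 0.01 in the Mxd1 set, and that of all genes was 0 to 0.01. Mxd1, a repressor that binds DNA with MAX, differed by 0.18 ± 0.08 (SE) in set 1, 0.28 ± 0.13 in set 2 and 0.66 ± 0.34 in set 3, with limma adjusted p of 0.35, 0.248 and 0.381. In set 3 its WT arrays ran from 8.86 to 10.76 and its KO arrays from 10.5 to 10.76, and without WT arrays 1 and 4 the difference was 0.03 ± 0.09. With the array labelled KO 3 also left out it was 0.06 ± 0.09. Mga, a MAX partner that also carries a T-box, differed by -0.17 ± 0.06 and -0.15 ± 0.07 in sets 1 and 2. CACGTG stood in promoters of 4 of these 9 genes, Mxd4, Mnt, Mlx and Mlxipl, beside 8.1% of all genes with a promoter (2187 of 27025). For Mlxipl 2 promoters were found, and 1 of them held it.

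Cofactors of MYC include the TRRAP and KAT5 acetylase complex. Of 17 tested, 1 fell and 0 rose in set 2, a share near the 6.14% of all genes called in that set, and the median difference was 0.03. That gene was Ruvbl1, an ATPase of chromatin remodelling complexes, which fell by 0.34 ± 0.06 (SE; limma, adjusted p = 0.00462) and by 0.29 ± 0.06 over both steady-state sets (adjusted p = 0.00726). In set 1, 15 of 17 lay below 0 with a median of -0.10, and 0 passed. Of 13 genes of MYC protein turnover, Stub1, a ubiquitin ligase, and Usp36, a nucleolar deubiquitinase, fell by 0.18 ± 0.05 and 0.19 ± 0.05 over both steady-state sets (adjusted p = 0.0383 and 0.0269). Their calls were lost in 14 and 5 of 24 alternatives. In that fit 2 of 13 fell and 0 rose, beside 4.43% of all genes called. None of these 13 passed in set 2 or set 1 alone.

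Among 17 tested regulators of Myc transcription, 3 rose and 0 fell in set 2, where Myc itself rose and 6.14% of all genes were called. They were Notch1, a receptor that activates Myc in T cells, at 0.30 ± 0.07 (SE; limma, adjusted p = 0.0178), Irf8, the lineage factor of cDC1, at 0.21 ± 0.06 (adjusted p = 0.047), and Bcl6, a repressor, at 0.19 ± 0.05 (adjusted p = 0.0385). The median of the list was 0.09 and that of all genes 0.01. The calls of Irf8 and Bcl6 were kept in 4 and 3 of 15 alternatives, and leaving out 1 array gave 0 to 3 genes that rose, with 0 without WT array 1. Over both steady-state sets Notch1 and Irf8 rose by 0.19 ± 0.05 and 0.15 ± 0.04, and Fubp1, which binds upstream of Myc, fell by 0.18 ± 0.05 (adjusted p = 0.0225, 0.0409 and 0.0297). The call of Irf8 there was kept in 9 of 24 alternatives, that of Notch1 in 21 and that of Fubp1 in 17. In that fit 2 of 18 rose and 1 fell, beside 4.43% of all genes called. In set 3 and in set 1 alone 0 of this list passed.

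Genes that MYC proteins are known to activate lay mostly lower in resting Mycl KO cells, in the set where Myc rose as in the set where it did not. Of 39 tested in set 2, 27 lay below 0, and 7 fell and 1 rose, beside 6.14% of all genes called, with a median of -0.08 against 0.01 for all genes. Nip7 and Nop2, which process ribosomal RNA, fell by 0.47 ± 0.07 and 0.28 ± 0.07 (SE; limma, adjusted p = 0.00198 and 0.0274), and Hspd1, the mitochondrial chaperonin, fell by 0.43 ± 0.11 (adjusted p = 0.0291). Nolc1, Eif4a1, Ddx21 and Wdr43 fell by 0.23 to 0.24. Ccnd2, a D cyclin and direct MYC target, went the other way and rose by 1.04 ± 0.14 (adjusted p = 0.000664). The calls of Nip7 and Ccnd2 were kept in 15 and 14 of 15 alternatives, and those of Nop2 and Hspd1 in 9 and 8. Leaving out 1 array gave 1 to 10 genes that fell, with 1 without WT array 1 and 3 without WT array 3.

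In set 1, 38 of 39 of these genes lay below 0, with a median of -0.20, and 0 passed, although 2 fell without heterozygous array 5. Over both steady-state sets 12 of 40 fell and 1 rose, beside 4.43% of all genes called. The median of the list was -0.13, against 0.01 for all genes. Nip7 fell by 0.42 ± 0.06 there, Nolc1 and Nop2 each by 0.34 ± 0.05, and Ccnd2 rose by 0.75 ± 0.12 (limma, adjusted p = 0.000372, 0.000416, 0.000314 and 0.000988). The set 1 effect less the set 2 effect was called for 1 of 40, beside 1.01% of all genes. It was Cad, an enzyme of pyrimidine synthesis, at -0.38 ± 0.09 (limma, adjusted p = 0.0399), a call lost in 15 of 24 alternatives.

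In set 3, 35 of 40 lay below 0 with a median of -0.42, and 0 passed. The mean level of the list was 8.76 and 8.57 in WT arrays 1 and 4, 8.0, 7.97 and 7.93 in WT arrays 2, 3 and 5, and 7.72 to 8.09 in KO cells. Without WT arrays 1 and 4 the median was -0.08 and 26 of 40 lay below 0, and with the array labelled KO 3 also left out it was -0.13 with 32 below 0. In the Mxd1 set 34 of 38 lay above 0 with a median of 0.21, and 0 passed. The list mean there was 8.22, 8.59 and 8.60 in WT and 8.64, 8.68 and 8.67 in the arrays labelled Mxd1 KO, and without WT array 1 the median was 0.08. Without WT array 2, 6 of the 38 rose.

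A few of the genes that MYC is known to repress rose in resting KO cells. Of 9 tested in set 2, 2 rose and 0 fell, beside 6.14% of all genes called. Ndrg1, a differentiation gene, rose by 0.61 ± 0.09 (SE) and Txnip, an inhibitor of glucose uptake, by 0.55 ± 0.12 (limma, adjusted p = 0.00178 and 0.0136). The median of the list was 0.02 and that of all genes 0.01. Over both steady-state sets Ndrg1, Txnip and Gadd45b, a growth arrest gene, rose by 0.40, 0.35 and 0.34 (adjusted p = 0.00806, 0.0189 and 0.0138). In that fit 3 of 9 rose and 0 fell, beside 4.43% of all genes called, and the list median was 0.02. In set 1 the list's median was 0.12 and in set 3 it was 0.26, with 0 passing in each. The mean level of the list in set 3 was 8.21 and 8.47 in WT arrays 1 and 4, 8.81, 8.82 and 8.9 in the other WT arrays and 8.88 to 9.14 in KO cells. Without WT arrays 1 and 4 the median was 0.07, also with the array labelled KO 3 left out, where 1 of 9 passed. The set 1 effect less the set 2 effect was called for 1 of 9, beside 1.01% of all genes. It was Btg2, an antiproliferative gene, at 0.40 ± 0.08 (limma, adjusted p = 0.0221), and this call was kept in 20 of 24 alternatives. Btg2 differed by 0.21 ± 0.06 in set 1 and by -0.19 ± 0.05 in set 2, and passed in neither. The Mxd1 set had a median of -0.16 and also 0 passing.

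**Figure D5:**
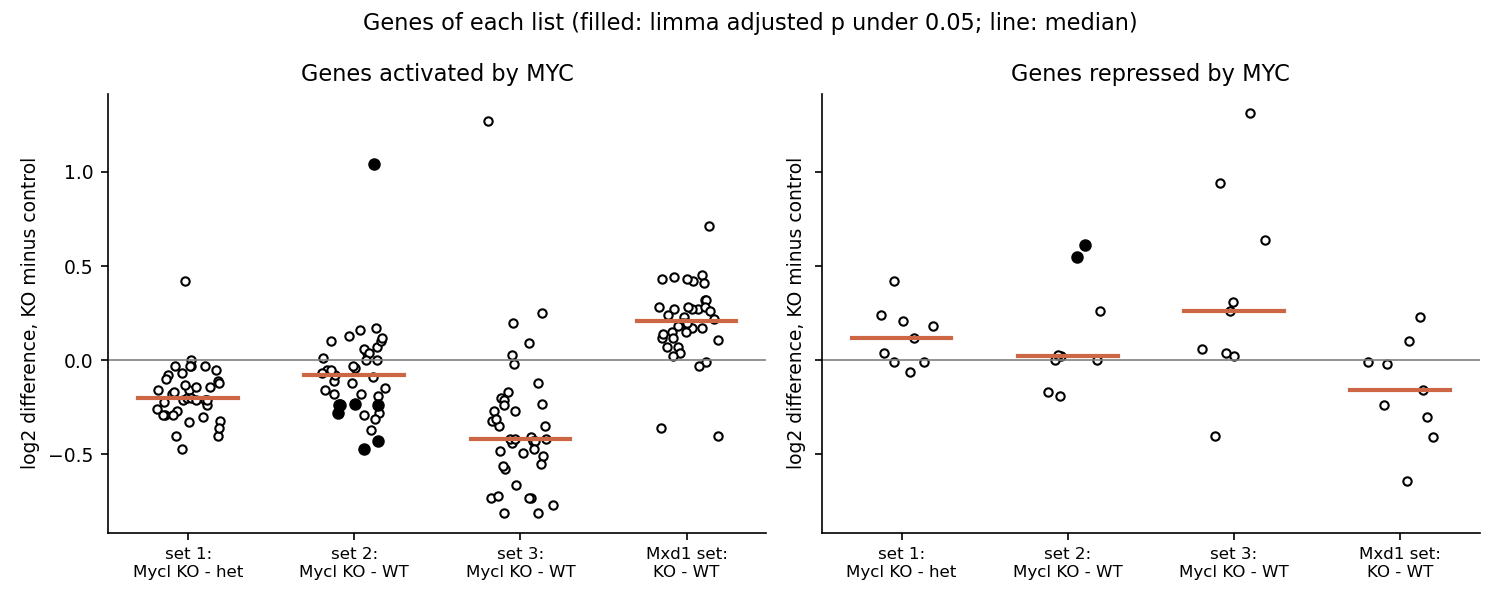
Log2 difference, KO minus control (y axis), of each tested gene known to be activated (left) or repressed (right) by MYC in the 4 sets (x axis), with filled points for an adjusted p under 0.05 in limma and orange lines for medians. The medians of the activated genes stand at -0.20, -0.08, -0.42 and 0.21, and the filled point above the others in set 2 is Ccnd2 at 1.04.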

How the data were processed

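The deposited table holds log2 values for 35556 transcript clusters on 35 arrays, made by the authors with the Affymetrix Expression Console and RMA, per the submitters' processing notes. RMA corrects background, equalises array distributions and summarises probes, with no version stated in those notes. Pairs of arrays shared 13.6 to 1987.1 exactly equal values on average within a set and 0.21 between sets, so the 4 sets were treated as normalized separately. The platform annotation gave 1 symbol to 21789 clusters, several to 1621 and none to 12146. The cluster with the highest mean stood for a gene. Genes entered a test if at or above the 30th percentile in a number of arrays no smaller than the smaller group.

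Differences were fitted with limma 3.58.1 in R 4.3.3 (lmFit, eBayes) on the groups compared only. P-values are two-sided and Benjamini-Hochberg adjusted across every gene tested, with 0.05 as the threshold. It was tested on simulated data. The members and gene lists were chosen with earlier results of these data known. List genes past the threshold are named, at most 4 a comparison, others in passing, with the 3 genes most and least like each member. Spike-ins named in the design were not found among the rows (0), so total RNA per cell is not measured. Arrays give no read depth, and their number limits the precision. Alternatives changed the filter, normalization, weights, pooled spread, block and arrays used. Same replicate numbers did not pair arrays.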

Additional observations from a re-analysis of the deposited data

Results flagged for a closer look

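Across the 4 members, 24 groups of 4 or 5 arrays were checked for an array far from the others of its group, and chance alone marks about 1 group in 20. Mycl in the heterozygous group of set 1 had its lowest array at 9.65, with 0.72 of the group's range between it and the next. Mycl in the KO group of set 3 had its highest array at 8.87, with 0.81 of the range below it, and this is the array labelled KO 3. Myc in the WT group of set 2 had its lowest array at 7.10 (0.80 of the range). In the KO group of set 1 Mycn had its highest array at 6.21 (0.86) and Max its lowest at 9.86 (0.90), and both belong to replicate 3.

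The KO effect differed between sets 1 and 2 for Mycl, by 1.15, and for Myc, by -1.19, each by limma's test of the difference itself. The control genotype differed between these sets, and which of genotype and set goes with the difference cannot be told apart.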

How the results depend on the processing

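Over the 28 member results, 528 values were recomputed, and 500 kept direction and side of the threshold, 20 changed sign, 1 lost its call and 7 gained one. The falls of Mycl in sets 1 and 2 and the rise of Myc in set 2 kept their calls under every alternative. Myc in set 1, at -0.01, became 0.04 with all arrays quantile normalized together, 0.10 with array weights and 0.07 with a replicate block, and -0.07 to 0.08 with 1 array left out. Mycl in set 3 passed at -3.02 with array weights, at -2.96 with all 8 groups in one fit and at -3.36 without the array labelled KO 3 and WT arrays 1 and 4, and ran from -3.56 to -2.72 with 1 array left out. Mycn in set 3 turned to 0.02 under array weights and both added exclusions (-0.06 to 0.01 with 1 array left out), and Max in set 3 to -0.01 without WT arrays 1 and 4. With 1 array left out Max ran from 0.00 to 0.09 in set 2 and from -0.03 to 0.01 over both steady-state sets, and Myc in the Mxd1 set from -0.66 to 0.08. Of the set 3 effects less those of set 2, Myc passed at -0.80 with array weights, -0.84 without WT arrays 1 and 4 and -0.78 without KO 3 too, and Max became -0.02, -0.04 and -0.03. Mycl in set 1 less set 2 stayed at 1.15 but lost its call with all 8 groups in one fit. The cause was not tested, beyond the arrays each exclusion names; the exclusions of WT arrays 1 and 4, with or without KO 3, were chosen after seeing the data.

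Counts of called genes moved more. Array weights gave 141, 72, 18, 74 and 584 genes in set 1, set 3, the Mxd1 set, set 3 less set 2 and set 1 less set 2. One fit of all 8 groups gave 358 in set 2, 1910 in set 3, 235 in the Mxd1 set, 119 over both steady-state sets, 181 and 15 for the same differences. The replicate block gave 1, 1, 16 and 30 in set 1, set 3, the Mxd1 set and set 1 less set 2, and it changed no member's call; replicate numbers did not mark pairs that deviated together. Without a filter set 3 had 1 gene, and quantile normalization gave 8 for set 3 less set 2. Leaving out WT arrays 1 and 4 gave 11 and 41 genes in set 3 and its difference from set 2, and 63 and 54 with KO 3 left out too. With 1 array left out the counts were 1 to 7 (set 1), 408 to 1012 (set 2), 0 to 2 (set 3), 3 to 568 (Mxd1 set) and 433 to 854 over both steady-state sets, and they were 1 to 30 for set 3 less set 2 and 31 to 317 for set 1 less set 2. The called list genes kept their sign in all 786 recomputed values and their call in 600, with Nip7 and Txnip in set 2 and Nip7 over both sets called in all. Each member has 1 cluster, so no other cluster could be tried, and RMA values leave no other background correction. Mycn near the filter level is the limit that signal over background sets here.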
